A study of Mus musculus with 12 samples.

Results

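The genes described are those of the mouse that encode Wnt ligands, Frizzled receptors, secreted Frizzled-related proteins, Dickkopf proteins and R-spondins, together with Axin2 and Lef1. They were taken by symbol from the protein-coding rows of the count table, which gave 43 members of 40760 genes: 19 Wnt, 10 Fzd, 4 Sfrp, 4 Dkk and 4 Rspo genes and the 2 target genes. Of the 43, 29 passed the filter on low counts and were tested, and 14 did not. The libraries came from Cd140a+ cells sorted from the lungs of male mice, Cd140a being the PDGFRA protein of lung mesenchymal cells. There were 12 libraries in 4 groups of 3, which were WT or Pear1-/- and received vehicle or bleo (WT vehicle, WT bleo, Pear1-/- vehicle and Pear1-/- bleo). Bleo is bleomycin, which injures the lung and causes fibrosis. Per the study's methods the mice were young adults of C57BL/6 background, bleo was given by aerosol into the trachea, and the Pear1-/- allele is a knockout-first cassette, present in every cell of the animal, whose splice acceptor and polyA signal cut the transcript short. The dose and day of these libraries, and whether libraries are separate animals, are not given in the sources used here, so p-values measure the spread between libraries, which may be technical.

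Wnt proteins are lipid-modified ligands that bind Frizzled receptors, together with the co-receptors LRP5 and LRP6 in the branch that stabilizes β-catenin, or with ROR and other receptors in branches that do not. Stabilized β-catenin acts with TCF and LEF factors on target genes such as Axin2. R-spondins keep Frizzled receptors at the cell surface, while secreted Frizzled-related proteins bind the ligands and some Dickkopf proteins block the co-receptors. In the lung, Wnt signals from mesenchymal cells support alveolar epithelial progenitors, and Wnt signalling has been linked to fibrosis.

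Between 6702948 and 10447101 reads per library were counted on genes. The counts of Pear1, the targeted gene, did not follow the labels. Vehicle libraries labelled Pear1-/- held 519.7 ± 24 normalized counts (SD, n = 3) against 547 ± 28.8 in those labelled WT, with overlapping libraries. After bleo Pear1 went against the label, with 357 ± 14.2 in the libraries labelled Pear1-/- and 254 ± 14 in those labelled WT, no overlap and a log2 fold change of 0.48 ± 0.077 (SE, adjusted p = 0.00012) in edgeR's quasi-likelihood test. Counts per gene do not show on which side of the cassette a read lies. WT and Pear1-/- are therefore the labels of the libraries throughout, and every direction between genotypes rests on them. One library stood apart from its group. A chi-square of the counts of 2 libraries, taken per degree of freedom so that pure counting noise gives 1, was 21.2 and 21.8 between WT vehicle replicate 2 and its 2 group mates, but 1.73 to 2.67 between it and the Pear1-/- vehicle libraries. For 25 of the 29 tested members, or 86.2%, this library lay nearer to the Pear1-/- vehicle mean than to that of WT vehicle replicates 1 and 3, against 77.1% of all tested genes. Whether it carries the label of another group was not tested, and it enters every WT vehicle mean, bleo change in WT and interaction under its own label. Reads on olfactory receptor genes, which lung mesenchyme is not known to use, served as a measure of unspecific background. Their mean count per kilobase over 1015 genes was 2.03, 0.865 and 2.18 in the WT vehicle libraries, 0.929, 0.900 and 0.659 in Pear1-/- vehicle, 0.0836 to 0.0944 in WT bleo and 0.0638 to 0.0750 in Pear1-/- bleo. Low counts in vehicle libraries, and in WT vehicle replicates 1 and 3 most, thus stood on more background than those in bleo libraries.

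The sort was checked against markers. Pdgfra held 4565 ± 325, 4165 ± 39.1, 1360.1 ± 29.9 and 2392 ± 18.8 normalized counts (SD, n = 3) in the groups WT vehicle, Pear1-/- vehicle, WT bleo and, last, Pear1-/- bleo, and the leukocyte gene Ptprc held 3303 ± 479, 3818 ± 263, 7616 ± 97.8 and 3365 ± 109. The summed level of 10 leukocyte markers was 2301 to 3050 CPM (counts scaled to a common library total) in WT vehicle, 2979 to 3200 in Pear1-/- vehicle, 12735 to 12887 in WT bleo and 5798 to 6015 in Pear1-/- bleo, and none of the 10 was at 0 in all libraries. The 10 fibroblast markers summed to 17213 to 19118, 18939 to 19698, 12719 to 12830 and 32680 to 33660 CPM in the same order, but 8 of them fell and 2 rose with bleo in WT, and 7 fell and 3 rose in Pear1-/-, the risers being the abundant collagen genes Col1a1 and Col1a2 in both and Col3a1 in Pear1-/-. The 8 epithelial markers summed to 4444 to 6401, 6065 to 7015, 1623 to 1650 and 709 to 723 CPM, and the 8 smooth muscle and pericyte markers to 726 to 731, 702 to 794, 580 to 592 and 1559 to 1606 CPM. The 8 endothelial markers, at 258 to 528 CPM, and the 6 mesothelial markers, at 32.1 to 99.1 CPM over all libraries, were lower. Between the bleo groups, where 23.9% of all tested genes were lower and 22.1% higher in Pear1-/-, 9 of 10 leukocyte markers were lower and 0 higher, and of 8 epithelial markers 5 were lower and 1 higher. Of the 10 fibroblast markers 5 were higher and 1 lower, of 8 smooth muscle and pericyte markers 4 were higher, all past 2-fold, and 2 lower, of 6 mesothelial markers 4 were higher and 0 lower, and of 8 endothelial markers 2 were higher and 2 lower. The cells are thus not pure mesenchyme by these markers, and in such bulk libraries fewer cells of a type and less RNA per cell cannot be told apart. The leukocyte, fibroblast, epithelial, smooth muscle and pericyte, and mesothelial sums thus moved between the bleo groups as well as with bleo, the endothelial sum moved with bleo but overlapped between the bleo groups, at 258 to 272 CPM in WT and 259 to 277 in Pear1-/-, and the part of these lists in the members' changes was not tested.

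Values are normalized counts, for which the authors scaled each library's counts by a size factor. A member rose or fell where edgeR's quasi-likelihood test gave a Benjamini-Hochberg adjusted p under 0.05 over all 17418 genes tested, and every adjusted p below is of that test. After bleo, the libraries labelled Pear1-/-, in which Pear1 itself was higher, held more RNA of several members than those labelled WT. These were the ligands Wnt10a, Wnt9a, Wnt5a and Wnt6, the receptor Fzd1, the agonist Rspo3, the antagonists Sfrp1 and Sfrp2, and Dkk3. Less was held of Dkk2, Sfrp4, Rspo2, Rspo4 and Wnt11. In all, 10 of the 29 tested members were higher in Pear1-/- bleo, where 22.1% of all tested genes were called higher, and 5 were lower, where 23.9% were. Past a 2-fold difference there were 6 higher and 3 lower, against 6.26% and 8.76% of all tested genes. The median log2 fold change over the 29 was 0.23, against -0.01 over all genes. The bleo groups had the tightest replicates and the least background.

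**Figure D1:**
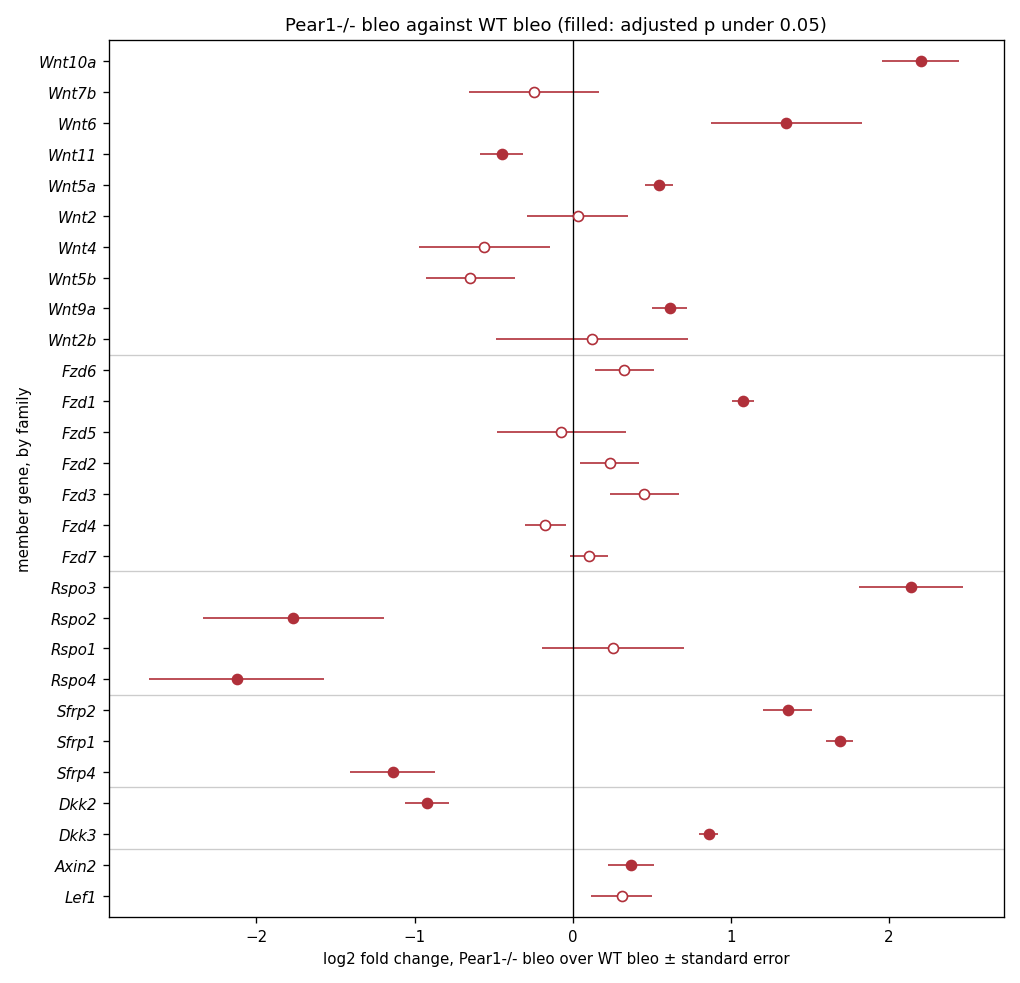
Log2 fold change of Pear1-/- bleo over WT bleo (x axis) for 28 tested members grouped by family (y axis), with bars of 1 standard error and filled points where the adjusted p was under 0.05. Wnt10a, Rspo3 and Sfrp1 lie at 2.20, 2.14 and 1.69, and Rspo4 at -2.12; Sfrp5, at 0 in all Pear1-/- bleo libraries, is left out.

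With bleo in WT, 17 of 29 members fell, where 36.6% of all tested genes were called lower. Another 5 rose, where 31.4% were called higher. The falls included the ligands Wnt9a and Wnt2b, the receptors Fzd4 and Fzd7, and both target genes, while Wnt10a, Wnt7b, Sfrp1, Sfrp2 and Dkk2 rose. Of these calls, 11 falls and 2 rises passed 2-fold, which 23.5% and 10.5% of all tested genes did. The median log2 fold change was -0.62 against -0.07 over all genes. Per kilobase, 12 of the 29 stood under 10 times the olfactory receptor level in WT vehicle, and 2 in WT bleo. With that background subtracted, 14 of 28 members then tested fell and 6 rose, where 64.6% of all genes then tested were called. With only the groups compared, 14 of 28 fell and 5 rose, where 62.5% were called.

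In the libraries labelled Pear1-/-, 14 members fell with bleo, where 33.4% of all tested genes were called lower, and 9 rose, where 28.9% were called higher. Fzd1, Fzd5, Fzd6, Rspo3, Sfrp1, Sfrp2, Wnt6, Wnt7b and Wnt10a rose, 7 of them more than 2-fold, as did 8.38% of all tested genes. Among the 14 that fell, 10 did so by more than 2-fold, as did 19.4% of all tested genes, with Sfrp4, Wnt2b, Rspo4 and Rspo1 among the 10. The median log2 fold change was -0.56, against -0.05 over all genes.

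**Figure D2:**
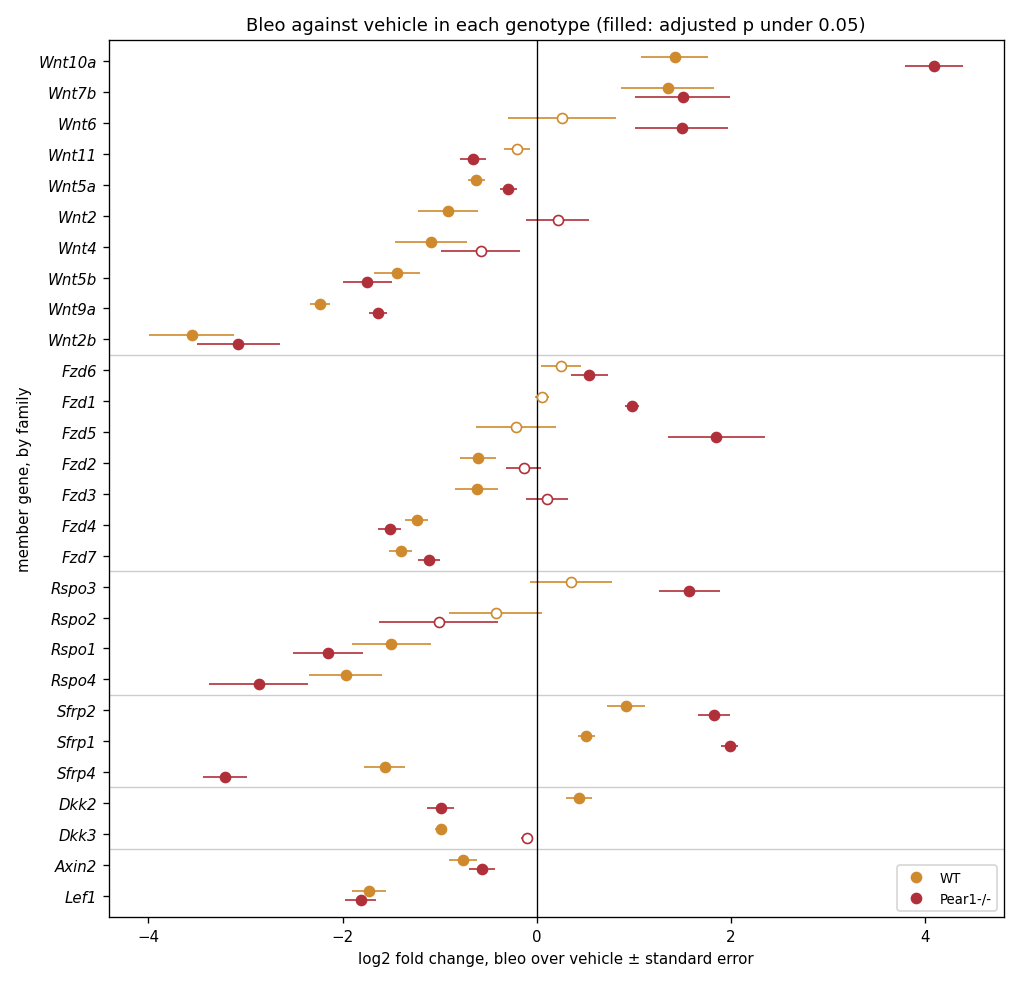
Log2 fold change of bleo over vehicle (x axis) in WT (orange) and Pear1-/- (red) cells for 28 tested members grouped by family (y axis), with bars of 1 standard error and filled points where the adjusted p was under 0.05. Wnt10a is at 1.42 and 4.10, Dkk2 lies on opposite sides of 0 at 0.44 and -0.99, and Lef1 is at -1.73 and -1.81; Sfrp5, at 0 in all Pear1-/- bleo libraries, is left out.

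Whether the bleo change itself differed between the genotypes was tested as the interaction, the log2 fold change of bleo in Pear1-/- less that in WT. It was called positive for 8 of 29 members, where 17.9% of all tested genes were, and negative for 2, where 19.1% were. The 8 were Wnt10a, Wnt9a, Wnt5a, Fzd1, Fzd5, Sfrp1, Sfrp2 and Dkk3, and the 2 were Dkk2 and Sfrp4. Leaving out 1 library gave 7 to 19 members called in all, against these 10, with the highest count without WT vehicle replicate 2, where 19 of 35 members and 46.4% of all genes then tested were called. The median over the members was 0.33, and that over all genes -0.0012.

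Between the vehicle groups, 1 member was called higher in Pear1-/-, Dkk2, where 0.855% of all tested genes were, and 1 lower, Fzd5, where 3.65% were. The log2 fold changes were 0.50 ± 0.14 (SE, adjusted p = 0.0494) for Dkk2 and -2.14 ± 0.50 (SE, adjusted p = 0.0408) for Fzd5. Without WT vehicle replicate 2, 21 of 35 members then tested were called, 9 higher and 12 lower, where 55.2% of all genes then tested were called, and without any one of the other 11 libraries none was called, as was none of all genes tested in those fits, although 4 to 17 members then had an unadjusted p under 0.05.

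**Figure D3:**
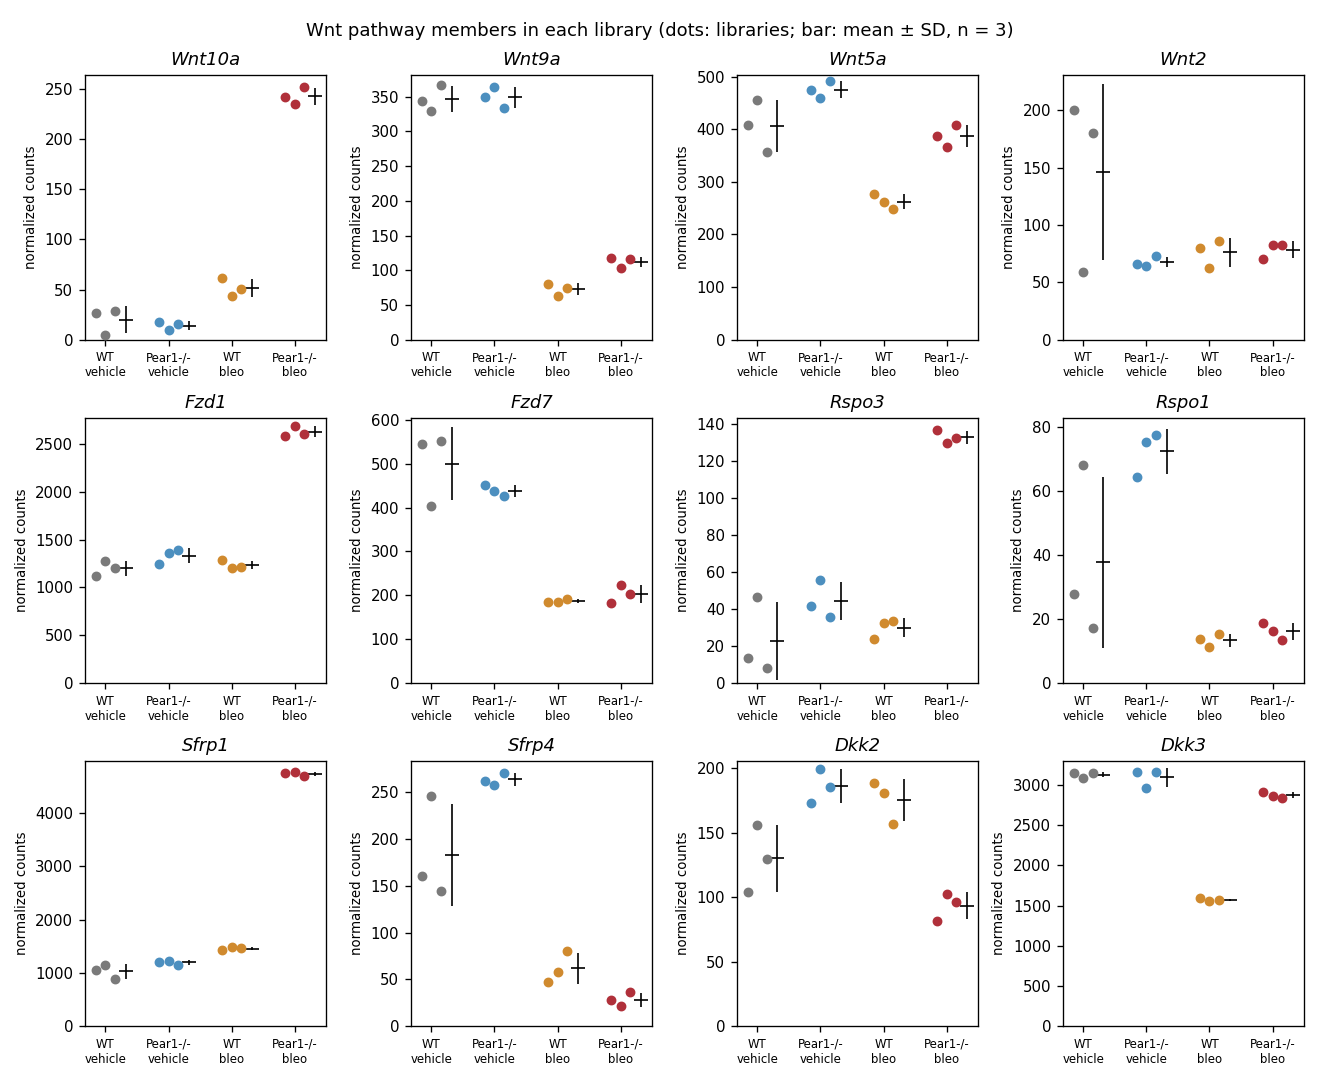
Normalized counts (y axis, from 0) of 12 members in each library, with 3 dots per group and the mean ± SD (n = 3) beside them. Wnt10a, Fzd1, Rspo3 and Sfrp1 have their 3 highest libraries in Pear1-/- bleo, Wnt9a and Fzd7 are low in all 6 bleo libraries, and in WT vehicle the middle dot of Wnt2, Rspo1 and Rspo3 is replicate 2.

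Among the ligands, Wnt10a had the largest change. Wnt10a (ENSMUSG00000026167; GRCm38 chromosome 1, 74791516 to 74804179, plus strand) encodes a ligand of the β-catenin branch known from skin, hair, teeth and fat. It held 26.7, 5.07 and 28.6 normalized counts in the WT vehicle libraries, 18, 9.28 and 15.3 in Pear1-/- vehicle, 61.5, 43.9 and 50.6 in WT bleo and 242, 235 and 252 in Pear1-/- bleo. Every bleo library was above every vehicle library, and the 3 Pear1-/- bleo libraries lay far above all others. The log2 fold change of Wnt10a was 2.20 ± 0.24 (SE, adjusted p = 2.84e-06) between the bleo groups, 1.42 ± 0.34 (SE, adjusted p = 0.00187) for bleo in WT and 4.10 ± 0.30 (SE, adjusted p = 1.78e-08) for bleo in Pear1-/-. The interaction was 2.67 ± 0.50 (SE, adjusted p = 0.000796), but 0.76 with WT vehicle replicate 2, which held 5 counts, as the only WT vehicle library, a setting in which the other groups alone give the spread, so that it is given as a value with no test. Without replicate 2 it was 3.09 (adjusted p = 5.71e-10).

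Wnt6 (ENSMUSG00000033227) lies on the same strand of chromosome 1, from 74771892 to 74785322, and 6193 bases separate its end from the start of Wnt10a. It was much lower in level. Wnt6 held 12.1, 20.3 and 1.14 normalized counts in WT vehicle, 11.4, 12.1 and 14.2 in Pear1-/- vehicle, 20.2, 7.14 and 13.2 in WT bleo and 28.4, 42.1 and 35.3 in Pear1-/- bleo. The Pear1-/- bleo libraries were again the highest 3 of the 12, while the other groups overlapped. It was higher in Pear1-/- bleo than in WT bleo by 1.35 ± 0.48 (SE, adjusted p = 0.0302), a call that was lost in 7 of 21 alternative settings, and rose with bleo in Pear1-/- by 1.49 ± 0.48 (SE, adjusted p = 0.0142), lost in 3 of 21. Its change in WT was 0.27 ± 0.56 (SE, adjusted p = 0.686) and its interaction 1.23 ± 0.74 (SE, adjusted p = 0.215), which without WT vehicle replicate 2 were 1.14 (adjusted p = 0.0515) and 0.34 (adjusted p = 0.751). The other neighbouring ligand pair with a tested gene, Wnt9a and Wnt3a on chromosome 11, had only Wnt9a above the filter.

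Wnt9a (ENSMUSG00000000126; chromosome 11, 59306928 to 59333552, plus strand), a ligand of the β-catenin branch, was the ligand with the smallest adjusted p for bleo in WT. It held 344, 329 and 366 normalized counts in WT vehicle, 349, 365 and 334 in Pear1-/- vehicle, 79.9, 63.2 and 74.9 in WT bleo and 117, 104 and 116 in Pear1-/- bleo. No bleo library reached any vehicle library, and the 3 Pear1-/- bleo libraries all stood above the 3 of WT bleo. The fall was -2.24 ± 0.10 (SE, adjusted p = 5.15e-11) in WT and -1.63 ± 0.094 (SE, adjusted p = 1.21e-09) in Pear1-/-. The bleo groups differed by 0.61 ± 0.11 (SE, adjusted p = 0.000362), and the interaction was 0.60 ± 0.14 (SE, adjusted p = 0.00372).

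Wnt5a (ENSMUSG00000021994; chromosome 14, 28504750 to 28527448, plus strand), best known for signalling without β-catenin, held 407, 456 and 357 normalized counts in WT vehicle, 474, 460.1 and 491 in Pear1-/- vehicle, 276, 262 and 248 in WT bleo and 386, 367 and 408 in Pear1-/- bleo. WT bleo was the lowest group, and none of its libraries reached a library of another group. Wnt5a fell with bleo, with a log2 fold change of -0.62 ± 0.09 (SE, adjusted p = 2.01e-05) in WT and -0.29 ± 0.085 (SE, adjusted p = 0.00773) in Pear1-/-, the latter lost in 2 of 21 settings. It was higher in Pear1-/- bleo than in WT bleo by 0.55 ± 0.089 (SE, adjusted p = 0.000124). Its interaction, 0.33 ± 0.12 (SE, adjusted p = 0.0474), lost its call in 15 of 20 alternative settings and was 0.15 without WT vehicle replicate 2. Wnt11, another ligand known for β-catenin-independent signalling, held 133 ± 8.43 normalized counts (SD, n = 3) in WT bleo and 98.4 ± 5.34 in Pear1-/- bleo, a log2 fold change of -0.45 (adjusted p = 0.0134) whose call was lost in 3 of 21 settings, and it fell with bleo in Pear1-/- from 155 ± 10.1 (adjusted p = 0.000588). In WT vehicle Wnt11 held 154 ± 30.8, and its change with bleo in WT was -0.20 (adjusted p = 0.185), but 0.010 (adjusted p = 0.947) without WT vehicle replicate 2.

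Wnt5b (ENSMUSG00000030170), the closest relative of Wnt5a, fell with bleo in both genotypes. It held 55.8, 83.2 and 51.5 normalized counts in WT vehicle, 48.3, 52.9 and 50.2 in Pear1-/- vehicle, 20.2, 25.5 and 24.3 in WT bleo and 16, 18.1 and 10.5 in Pear1-/- bleo. All bleo libraries were below all vehicle libraries. The falls were -1.44 ± 0.24 (SE, adjusted p = 7.79e-05) in WT and -1.74 ± 0.25 (SE, adjusted p = 2.98e-05) in Pear1-/-, and the bleo groups differed by -0.65 ± 0.28 (SE, adjusted p = 0.073), which did not pass, though it did without WT vehicle replicate 2 (adjusted p = 0.0429).

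Wnt2b (ENSMUSG00000027840), which with Wnt2 specifies the lung in the embryo, had the deepest fall of any ligand. It held 46.1, 28.4 and 45.8 normalized counts in WT vehicle, 45.5, 26 and 21.8 in Pear1-/- vehicle, 4.59, 3.06 and 2.02 in WT bleo and 2.66, 4.3 and 3.81 in Pear1-/- bleo. No bleo library came near a vehicle library. With bleo Wnt2b changed by -3.55 ± 0.44 (SE, adjusted p = 4.23e-06) on the log2 scale in WT and -3.07 ± 0.43 (SE, adjusted p = 1.89e-05) in Pear1-/-. Per kilobase its mean in WT vehicle was 4.91 times that of olfactory receptor genes, and with that background subtracted the falls were -3.36 (adjusted p = 1.87e-05) and -2.96 (adjusted p = 5.63e-05). The bleo groups differed by 0.12, with a 95% interval of -1.07 to 1.31.

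Wnt2 (ENSMUSG00000010797; chromosome 6, 17988940 to 18030585, minus strand) encodes a ligand of the embryonic lung mesenchyme. Its 3 WT vehicle libraries held 200.1, 58.9 and 179.7 normalized counts, so that replicate 2 lay at the level of Pear1-/- vehicle, with 66.3, 64 and 73.1. WT bleo held 79.9, 62.2 and 86.1 and Pear1-/- bleo 70.1, 82.5 and 82.9. The fall with bleo in WT was -0.91 ± 0.31 (SE, adjusted p = 0.0159), and -1.24 (adjusted p = 2.67e-10) without replicate 2, but 0.39, a value with no test, with replicate 2 as the only WT vehicle library. Of 21 alternative settings, 15 kept the call, 5 lost it, and the one with replicate 2 alone turned the direction. In Pear1-/- it was 0.22 ± 0.33 (SE, adjusted p = 0.576), and between the bleo groups 0.03 with a 95% interval of -0.60 to 0.66.

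Wnt4 (ENSMUSG00000036856), a ligand known from kidney and gonad development, held 41.2, 21.3 and 48.1 normalized counts in WT vehicle, 16.1, 14.8 and 21.8 in Pear1-/- vehicle, 14.7, 20.4 and 16.2 in WT bleo and 16.9, 12 and 5.72 in Pear1-/- bleo. WT vehicle replicates 1 and 3 were the highest libraries. Wnt4 fell with bleo in WT, with a log2 fold change of -1.09 ± 0.37 (SE, adjusted p = 0.0169), but this was -0.31, a value with no test, with WT vehicle replicate 2 as the only WT vehicle library. This call was lost in 4 of 21 settings, among them the subtraction of the olfactory receptor background. In WT vehicle the mean of Wnt4 per kilobase was 4.52 times that background. The change of Wnt4 in Pear1-/- was -0.58 ± 0.41 (SE, adjusted p = 0.234). Wnt7b, an epithelial ligand in the developing lung, was the lowest ligand tested. It held 5.77 ± 3.26, 4.26 ± 1.37, 14.5 ± 3.68 and 12.3 ± 3.35 normalized counts (SD, n = 3) in that order of groups. Wnt7b rose with bleo in WT by 1.35 (adjusted p = 0.0206) and in Pear1-/- by 1.51 (adjusted p = 0.0148), calls lost in 3 and 2 of 21 settings, against the fall of the background. In WT vehicle its mean per kilobase was 0.606 times that of olfactory receptor genes, and in Pear1-/- vehicle 1.07 times, so both rises started near that level.

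Fzd1 was the most abundant of the receptors and the one that separated the bleo groups. Fzd1 (ENSMUSG00000044674; chromosome 5, 4753839 to 4758035, minus strand) held 1119, 1282 and 1199.8 normalized counts in WT vehicle, 1245, 1365 and 1390.3 in Pear1-/- vehicle, 1284, 1203 and 1218 in WT bleo and 2589, 2694 and 2603 in Pear1-/- bleo. Only the Pear1-/- bleo libraries lay apart, and the 9 others overlapped between groups. The difference between the bleo groups was 1.08 ± 0.072 (SE, adjusted p = 1.41e-08), the change with bleo 0.98 ± 0.072 (SE, adjusted p = 1.72e-08) in Pear1-/- and 0.05 ± 0.072 (SE, adjusted p = 0.532) in WT, and the interaction 0.93 ± 0.10 (SE, adjusted p = 5.78e-06). Over the alternative settings these 3 calls held, while the change in WT was 0.17 (adjusted p = 0.0174) without WT vehicle replicate 2.

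Fzd7 and Fzd4 fell with bleo in both genotypes. Fzd7 (ENSMUSG00000041075; chromosome 1, 59482424 to 59486955, plus strand) held 546, 404 and 552 normalized counts in WT vehicle, 453, 438 and 426 in Pear1-/- vehicle, 185, 186 and 192 in WT bleo and 183, 224 and 203 in Pear1-/- bleo. With bleo Fzd7 had a log2 fold change of -1.40 ± 0.12 (SE, adjusted p = 4.71e-08) in WT and -1.10 ± 0.11 (SE, adjusted p = 7.77e-07) in Pear1-/-. Fzd4 (ENSMUSG00000049791; chromosome 7, 89404355 to 89413134, plus strand), which also receives norrin, held 353, 389.6 and 315 in WT vehicle, 377, 425 and 339 in Pear1-/- vehicle, 134, 152 and 160.0 in WT bleo and 117, 154 and 127 in Pear1-/- bleo. The change was -1.24 ± 0.12 (SE, adjusted p = 3.5e-07) in WT and -1.52 ± 0.12 (SE, adjusted p = 4.4e-08) in Pear1-/-. For both genes all vehicle libraries were above all bleo libraries, and the 95% interval of the difference between the bleo groups was -0.13 to 0.34 for Fzd7 and -0.43 to 0.08 for Fzd4.

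The remaining receptors were low. Fzd5 (ENSMUSG00000045005) held 17, 12.2 and 19.5 normalized counts in WT vehicle, 2.84, 6.49 and 1.09 in Pear1-/- vehicle, 11.9, 12.2 and 17.2 in WT bleo and 8.88, 14.6 and 16.2 in Pear1-/- bleo. Pear1-/- vehicle was the odd group, with 1 to 7 counts per library, and per kilobase its mean was 0.62 times that of olfactory receptor genes and that of WT vehicle 1.21 times. The rise with bleo in Pear1-/- was 1.85 ± 0.50 (SE, adjusted p = 0.00486) and the interaction 2.07 ± 0.65 (SE, adjusted p = 0.0217), the latter lost in 9 of 20 alternative settings, while the change in WT was -0.21 ± 0.41 (SE, adjusted p = 0.659), or -0.33 without WT vehicle replicate 2. Fzd2, Fzd3 and Fzd6 had group means between 38.2 and 71.8 normalized counts. Fzd2 fell with bleo in WT from 71.8 ± 11.6 to 46.6 ± 4.37 (SD, n = 3; adjusted p = 0.0087) and in Pear1-/- stood at 60.6 ± 9.39 in vehicle and 55.4 ± 7.46 in bleo (adjusted p = 0.534). Fzd3 fell in WT from 68.9 ± 21.5 to 44.2 ± 1.48 (adjusted p = 0.0228) and stood at 56.6 ± 7.45 and 61 ± 9.1 in Pear1-/- vehicle and bleo. Its call in WT was lost in 7 of 21 settings, among them the subtraction of the olfactory receptor background. Over the settings its log2 fold change ranged from -0.79 to -0.03. In WT vehicle the mean of Fzd3 per kilobase was 2.77 times that background. Fzd6, a receptor of planar cell polarity, rose in Pear1-/- from 39.3 ± 4.28 to 57.3 ± 8.87 (adjusted p = 0.0218), a call lost in 4 of 21 settings, which were DESeq2 and the fits without Pear1-/- vehicle replicate 1, Pear1-/- bleo replicate 2 or Pear1-/- bleo replicate 3, and stood at 38.2 ± 6.1 and 45.3 ± 6 in WT vehicle and bleo.

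**Figure D4:**
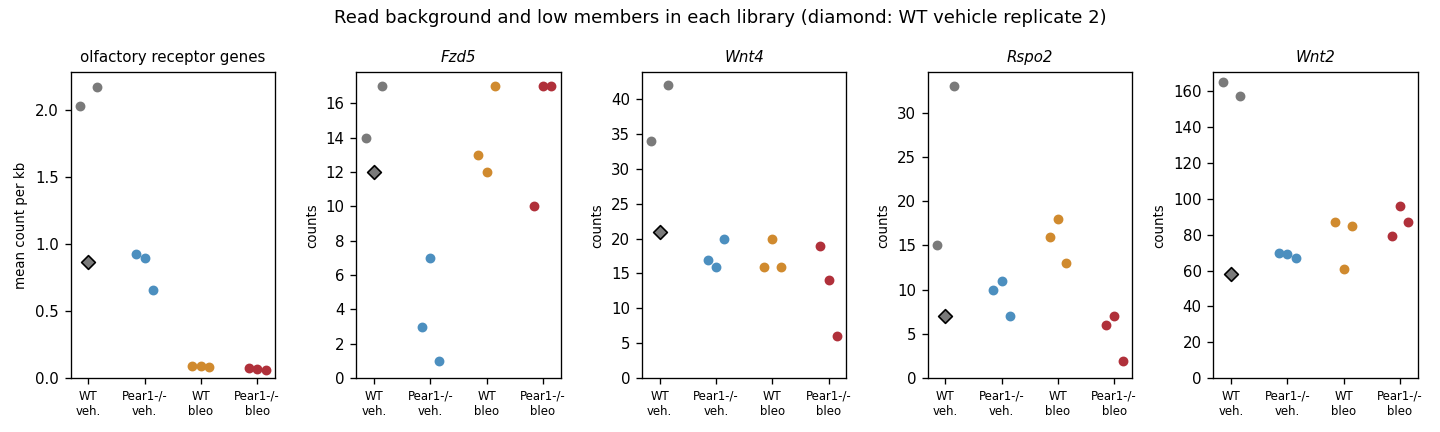
Mean count per kilobase of olfactory receptor genes and raw counts of Fzd5, Wnt4, Rspo2 and Wnt2 (y axes, from 0) in each library of the 4 groups, with WT vehicle replicate 2 as a diamond. WT vehicle replicates 1 and 3 have the highest background, at 2.03 and 2.18, and the highest counts of Wnt2 and Wnt4.

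The R-spondins split. Rspo3 (ENSMUSG00000019880; chromosome 10, 29452416 to 29535867, minus strand) held 13.3, 46.7 and 8.01 normalized counts in WT vehicle, 41.7, 55.7 and 36 in Pear1-/- vehicle, 23.9, 32.6 and 33.4 in WT bleo and 137, 129.8 and 132 in Pear1-/- bleo. The Pear1-/- bleo libraries lay far above the other 9, and WT vehicle replicate 2 lay among Pear1-/- vehicle. The bleo groups differed by 2.14 ± 0.33 (SE, adjusted p = 7.96e-05), and the rise with bleo was 1.57 ± 0.31 (SE, adjusted p = 0.000453) in Pear1-/- against 0.35 ± 0.42 (SE, adjusted p = 0.469) in WT. The WT value turned on replicate 2 of WT vehicle. Without that library Rspo3 rose in WT by 1.56 (adjusted p = 9.71e-05), as in Pear1-/- at 1.55, and the interaction, which did not pass at 1.22 ± 0.53 (SE, adjusted p = 0.084), was -0.0026 (adjusted p = 1). The calls between the bleo groups and for bleo in Pear1-/- were kept in all 21 settings.

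Rspo1, Rspo2 and Rspo4 had no rise that passed. Rspo1 (ENSMUSG00000028871) held 27.9, 68 and 17.2 normalized counts in WT vehicle, 64.4, 75.1 and 77.5 in Pear1-/- vehicle, 13.8, 11.2 and 15.2 in WT bleo and 18.6, 16.3 and 13.3 in Pear1-/- bleo. The falls with bleo were -1.50 ± 0.41 (SE, adjusted p = 0.00448) in WT and -2.15 ± 0.36 (SE, adjusted p = 0.000116) in Pear1-/-. In WT vehicle, replicate 2 was the highest library, at the level of Pear1-/- vehicle. Without it the fall in WT was -0.66 (adjusted p = 0.0744). Rspo4 (ENSMUSG00000032852) held 64.3, 30.4 and 50.4 in WT vehicle, 19.9, 26 and 15.3 in Pear1-/- vehicle, 12.9, 8.16 and 15.2 in WT bleo and 0.888, 2.58 and 4.77 in Pear1-/- bleo. The 4 groups lay in steps without overlap in normalized counts, but that between Pear1-/- vehicle and WT bleo was only 15.3 against 15.2. The raw counts of these libraries were 14 and 15. The falls with bleo were -1.97 ± 0.38 (SE, adjusted p = 0.000287) in WT and -2.86 ± 0.51 (SE, adjusted p = 0.000194) in Pear1-/-. Between the bleo groups it was -2.12 ± 0.55 (SE, adjusted p = 0.00538), on 1 to 5 counts per Pear1-/- bleo library, and the interaction was -0.90 ± 0.66 (SE, adjusted p = 0.308). Rspo2, an R-spondin needed for lung growth in the embryo, held 21 ± 15.5, 9.1 ± 1.32, 15.4 ± 2.67 and 4.42 ± 2.2 normalized counts (SD, n = 3) in the same order. Between the bleo groups it was lower in Pear1-/-, with a log2 fold change of -1.77 (adjusted p = 0.0195), and this call was lost in 2 of 21 settings.

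Per kilobase of exon, Sfrp1 was the most abundant member in Pear1-/- bleo, at 1082 normalized counts, ahead of Dkk3 at 856. Sfrp1 (ENSMUSG00000031548; chromosome 8, 23411502 to 23449632, plus strand), which binds Wnt ligands outside the cell, held 1045, 1157 and 882 normalized counts in WT vehicle, 1209, 1225 and 1150.3 in Pear1-/- vehicle, 1419.9, 1478 and 1469 in WT bleo and 4749.6, 4763 and 4685 in Pear1-/- bleo. All bleo libraries were above all vehicle libraries, and the Pear1-/- bleo libraries were above those of WT bleo. The difference between the bleo groups was 1.69 ± 0.084 (SE, adjusted p = 7.21e-10). With bleo, Sfrp1 rose by 0.51 ± 0.084 (SE, adjusted p = 6.68e-05) in WT and by 1.99 ± 0.085 (SE, adjusted p = 3.71e-11) in Pear1-/-, and the interaction of 1.48 ± 0.12 (SE, adjusted p = 3.4e-07) ranged from 1.30 to 1.66 over the alternative settings. All 4 calls held in every one of them.

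Sfrp2 (ENSMUSG00000027996; chromosome 3, 83766321 to 83774316, plus strand) followed the same order at a lower level. It held 38.8, 34.5 and 34.3 normalized counts in WT vehicle, 42.6, 48.2 and 57.8 in Pear1-/- vehicle, 79.9, 49 and 72.9 in WT bleo and 165, 174 and 185 in Pear1-/- bleo. The bleo groups differed by 1.36 ± 0.16 (SE, adjusted p = 4.73e-06), its rise with bleo was 0.92 ± 0.20 (SE, adjusted p = 0.000661) in WT and 1.83 ± 0.16 (SE, adjusted p = 1.86e-07) in Pear1-/-, and the interaction was 0.90 ± 0.26 (SE, adjusted p = 0.0136), a call lost in 2 of 20 settings.

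Sfrp4 (ENSMUSG00000021319; chromosome 13, 19623104 to 19632994, plus strand) ran in the opposite direction. It held 160.1, 246 and 144 normalized counts in WT vehicle, 262, 258 and 271 in Pear1-/- vehicle, 47.8, 58.1 and 80 in WT bleo and 27.5, 21.5 and 36.2 in Pear1-/- bleo. Every vehicle library was above every bleo library, and Pear1-/- bleo was the lowest group. The log2 fold change of Sfrp4 with bleo was -1.57 ± 0.21 (SE, adjusted p = 1.08e-05) in WT and -3.21 ± 0.23 (SE, adjusted p = 1.24e-08) in Pear1-/-. Between the bleo groups it was -1.14 ± 0.27 (SE, adjusted p = 0.00273), and the interaction was -1.65 ± 0.32 (SE, adjusted p = 0.00107). Sfrp5 was low in vehicle libraries, at 8.27 ± 1.32 normalized counts in WT vehicle and 11.6 ± 1.46 in Pear1-/- vehicle (SD, n = 3). In WT bleo it had 1, 2 and 0 counts, below the 3 counts taken as detection, and in Pear1-/- bleo 0 in each library, which against a floor of 3 counts per library was at least 4.28-fold lower than Pear1-/- vehicle. edgeR called both falls (adjusted p = 0.00195 in WT and 4.44e-05 in Pear1-/-). Per kilobase the mean of Sfrp5 was 2.24 times that of olfactory receptor genes in WT vehicle and 7.50 times in Pear1-/- vehicle. With that background subtracted neither fall could be fitted.

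The Dickkopf genes differed from each other. Dkk3 (ENSMUSG00000030772; chromosome 7, 112116017 to 112159057, minus strand), a divergent member of the family, was the most abundant member per kilobase of exon over the 12 libraries, at a mean of 794 normalized counts per kilobase, followed by Sfrp1 at 481 and Fzd1 at 381, while Fzd7 came next at 73.4. It held 3145, 3091 and 3145 normalized counts in WT vehicle, 3161, 2958 and 3164 in Pear1-/- vehicle, 1588, 1552 and 1569 in WT bleo and 2918, 2868 and 2836 in Pear1-/- bleo. WT bleo alone was low, with its 3 libraries below the 9 others. Its log2 fold change with bleo was -0.98 ± 0.061 (SE, adjusted p = 1.7e-09) in WT and -0.10 ± 0.06 (SE, adjusted p = 0.15) in Pear1-/-, where it was -0.12 (adjusted p = 0.0238) without WT vehicle replicate 2, the bleo groups differed by 0.86 ± 0.061 (SE, adjusted p = 2.55e-08), and the interaction was 0.88 ± 0.085 (SE, adjusted p = 1.96e-06).

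Dkk2 (ENSMUSG00000028031; chromosome 3, 132085292 to 132180304, plus strand), which binds LRP5 and LRP6, moved in opposite directions in the 2 genotypes. It held 104, 156 and 129 normalized counts in WT vehicle, 173, 199 and 186 in Pear1-/- vehicle, 188, 181 and 157 in WT bleo and 81.7, 102 and 96.3 in Pear1-/- bleo. Pear1-/- bleo was the lowest group, and no library of it reached another group. The log2 fold change of Dkk2 with bleo was 0.44 ± 0.14 (SE, adjusted p = 0.0109) in WT, a call lost in 3 of 21 settings and 0.66 without WT vehicle replicate 2, and -0.99 ± 0.14 (SE, adjusted p = 1.93e-05) in Pear1-/-. The interaction was -1.42 ± 0.19 (SE, adjusted p = 5.09e-05) and the difference between the bleo groups -0.92 ± 0.14 (SE, adjusted p = 6.53e-05), while that between the vehicle groups, given above, lost its call in 17 of 21 settings.

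Both target genes fell with bleo. Axin2 (ENSMUSG00000000142; chromosome 11, 108920349 to 108950783, plus strand), a feedback inhibitor that β-catenin induces in many tissues, held 119, 126 and 99.6 normalized counts in WT vehicle, 131, 122 and 138 in Pear1-/- vehicle, 61.5, 78.5 and 62.8 in WT bleo and 87.9, 97.1 and 78.2 in Pear1-/- bleo. All bleo libraries were below all vehicle libraries. The log2 fold change was -0.76 ± 0.14 (SE, adjusted p = 0.000274) in WT and -0.56 ± 0.13 (SE, adjusted p = 0.00203) in Pear1-/-. Between the bleo groups it was 0.37 ± 0.14 (SE, adjusted p = 0.0493), with overlapping libraries, and this call was lost in 12 of 21 settings, and the interaction was 0.19 ± 0.20 (SE, adjusted p = 0.465), or 0.040 without WT vehicle replicate 2.

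Lef1 (ENSMUSG00000027985; chromosome 3, 131110471 to 131224356, plus strand), a DNA-binding partner of β-catenin and itself a target, held 207, 258 and 164 normalized counts in WT vehicle, 276, 295 and 262 in Pear1-/- vehicle, 49.6, 61.2 and 79 in WT bleo and 71, 86 and 79.1 in Pear1-/- bleo. The vehicle libraries were all well above the bleo libraries. With bleo its log2 fold change was -1.73 ± 0.17 (SE, adjusted p = 5.05e-07) in WT and -1.81 ± 0.16 (SE, adjusted p = 1.73e-07) in Pear1-/-. The bleo groups differed by 0.31 ± 0.19 (SE, adjusted p = 0.203), with a 95% interval of -0.07 to 0.68, and the vehicle groups by 0.40 ± 0.15 (SE, adjusted p = 0.0929), which became 0.65 (adjusted p = 1.72e-05) without WT vehicle replicate 2. The interaction of -0.09 ± 0.24 (SE, adjusted p = 0.813) changed sign between settings and was -0.35 (adjusted p = 0.149) without WT vehicle replicate 2.

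Since Axin2 and Lef1 fell together with the ligands Wnt9a and Wnt5b and the receptor Fzd7, the members' promoters were searched for the core of the TCF and LEF binding motif, which was spelled with any of the following letters: CTTTGAA in one form, CTTTGAT in another, CTTTGTA in a further form and CTTTGTT in the last. The search covered both strands of the 250 bases before the start. RefSeq windows of GRCm38.p6 were given for 29 of the 43 members, and not for Sfrp1, Wnt10a, Rspo3 and Sfrp4 among others. A match lay in 5 of the 35 windows of members, or 14.3%, and in 4874 of 32851 windows of all genes, or 14.8%. The 5 windows belonged to Dkk1, Fzd7, Lef1, Wnt11 and Wnt5b. Those of Axin2, which held none, of Fzd7 and of an internal start of Lef1 are shown 5′ to 3′ up to the start, with matches in capitals, to set 2 genes that fell with bleo and hold a match beside a target gene that fell and holds none.
Axin2, chr11:108920099-108920348, plus strand: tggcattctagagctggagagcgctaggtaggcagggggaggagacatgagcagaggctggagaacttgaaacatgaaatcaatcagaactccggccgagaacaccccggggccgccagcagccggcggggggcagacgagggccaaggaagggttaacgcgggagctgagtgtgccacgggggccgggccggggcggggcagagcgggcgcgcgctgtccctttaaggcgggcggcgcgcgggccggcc
Fzd7, chr1:59481897-59482146, plus strand: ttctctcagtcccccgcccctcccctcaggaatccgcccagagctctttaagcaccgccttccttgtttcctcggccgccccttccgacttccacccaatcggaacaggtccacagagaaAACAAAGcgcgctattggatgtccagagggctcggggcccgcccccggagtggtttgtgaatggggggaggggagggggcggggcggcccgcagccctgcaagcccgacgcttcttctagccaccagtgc
Lef1, chr3:131156044-131156293, plus strand: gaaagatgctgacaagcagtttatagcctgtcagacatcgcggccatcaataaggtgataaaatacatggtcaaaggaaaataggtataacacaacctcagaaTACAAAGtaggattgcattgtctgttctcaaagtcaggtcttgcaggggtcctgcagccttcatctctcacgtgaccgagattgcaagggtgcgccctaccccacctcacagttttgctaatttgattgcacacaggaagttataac
The match of Fzd7 starts 130 bases before its start and that of Lef1 147 bases before this internal start, both as the reverse complement, which reads AACAAAG in Fzd7 while in Lef1 it reads TACAAAG. Such a match is a stretch of letters and not a site of binding, and 3 further windows of Lef1 held none.

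By the GENCODE M21 annotation, exons of 9 members overlap those of another gene on the opposite strand: Axin2, Fzd5, Fzd6, Lef1, Rspo3, Sfrp2, Wnt11, Wnt5a and Wnt7b. The library kit does not keep strand and no source states that strand was used in counting, so reads of such a pair cannot be told apart where they overlap. The overlapping genes with a row in the table had at most 13 counts in a library, which matters for Fzd5, whose own counts were 1 to 17, and for Wnt7b at 2 to 18.

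The 14 members that were not tested were Wnt1, Wnt3, Wnt3a, Wnt7a, Wnt8a, Wnt8b, Wnt9b, Wnt10b, Wnt16, Fzd8, Fzd9, Fzd10, Dkk1 and Dkk4. Their highest count in any library was 4 to 16, and in any bleo library 0 to 9. Dkk1, Dkk4, Wnt8a, Wnt8b and Wnt9b had 0 in all 6 bleo libraries, which allows up to 3 counts in each. For 11 of the 14 the highest library was WT vehicle replicate 1 or 3, the libraries with the most olfactory receptor background. Among the 11, Wnt10b was tied at 7 counts with Pear1-/- vehicle replicate 2.

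A wider list of 66 genes of the pathway was counted beside the members, of which 62 were tested: receptors and co-receptors, other secreted modulators, secretion factors, the cytoplasmic relay, nuclear factors, targets and planar cell polarity genes. With bleo in WT, 9 rose and 37 fell, or 14.5% and 59.7%, against 31.4% and 36.6% of all tested genes. In Pear1-/- 17 rose and 27 fell, or 27.4% and 43.5%, against 28.9% and 33.4%. Between the bleo groups 26 were higher and 6 lower in Pear1-/-, or 41.9% and 9.68%, against 22.1% and 23.9%. The interaction was positive for 24 and negative for 8, or 38.7% and 12.9%, against 17.9% and 19.1%, and between the vehicle groups 0 were higher and 2 lower, against 0.855% and 3.65%. Median log2 fold changes in that order were -0.63, -0.05, 0.24, 0.38 and -0.08, beside -0.07, -0.05, -0.01, -0.0012 and -0.0039 over all tested genes.

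Porcn, which attaches the lipid that Wnt ligands need for secretion, held 131 ± 11, 123 ± 13.3, 259 ± 17.6 and 522 ± 13.1 normalized counts (SD, n = 3) in the vehicle groups of WT and Pear1-/- and then in their bleo groups, and its rise in Pear1-/- was 2.09 (adjusted p = 6.97e-11). Gpc4, a glypican that binds Wnt ligands, stood at 177 ± 17.3 in WT bleo and 489 ± 43.7 in Pear1-/- bleo, a difference of 1.45 (adjusted p = 4.52e-08), and Prickle1, a planar cell polarity gene, at 157 ± 22.3 and 397 ± 25.2, a difference of 1.33 (adjusted p = 6.59e-08). Apc, a scaffold of the complex that destroys β-catenin, and the co-repressor Tle4 were below WT bleo in Pear1-/- bleo, by log2 fold changes of -1.01 (adjusted p = 9.31e-07) and -1.31 (adjusted p = 1.25e-06). The secreted inhibitor Notum and the feedback inhibitor Nkd1 fell with bleo, with log2 fold changes of -1.80 (adjusted p = 3.85e-10) and -1.36 (adjusted p = 1.37e-09) in WT and, in Pear1-/-, of -1.20 and -0.89 (adjusted p = 2.97e-08 and 1.28e-07). Ccnd1, a cyclin gene that many other signals also induce, rose by 1.55 in WT and 1.51 in Pear1-/- (adjusted p = 2.51e-10 and 4.32e-10), and Tnks, whose product turns over axin, by 1.01 in WT (adjusted p = 5.87e-07). The glypican gene Gpc6 and the polarity gene Prickle2 fell with bleo in Pear1-/-, with log2 fold changes of -2.69 and -1.41 (adjusted p = 5.4e-09 and 1.29e-08). Celsr1, a polarity cadherin, stood below its WT vehicle level in Pear1-/- vehicle, at a log2 fold change of -1.44 (adjusted p = 0.0426), a call lost in 14 of 21 settings, among them the fits without any one library other than WT vehicle replicate 2.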

How the data were processed

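RNA of Cd140a+ lung cells was amplified with the SMART-Seq v4 kit and sequenced. The authors aligned the reads to GRCm38 with HISAT2 and deposited a table of raw counts per gene for the 12 libraries and a second table of the same counts divided by a size factor per library, a normalized signal that is not a log scale. The program that counted the reads is not given in the sources used here. Counts were tested with edgeR 4.0.16 (R 4.3.3): filterByExpr by group, TMM normalization, 1 mean per group over all 12 libraries, quasi-likelihood dispersion and two-sided tests of 5 comparisons, with Benjamini-Hochberg adjustment over 17418 genes. The interaction is the bleo change in Pear1-/- less that in WT. Library totals ran from 6702948 to 10447101, and a floor of 3 counts covers counting error only. Levels were divided by exonic length from GENCODE M21. DESeq2 1.42.0, limma 3.58.1 on log2(normalized + 1), other scalings, no filter, the groups alone, the replicate number as a block and leaving out each library were the alternatives, and the steps were tested on simulated data. Every tested member is named. Full statistics were given to Axin2, Lef1, members past adjusted p 0.05 and 2-fold in any comparison with log2 CPM averaging 1 or more, and up to 2 per family with the smallest interaction p. Of the wider list at most 12 genes were named, by smallest p in each direction past 2-fold, in the order of the comparisons. Marker lists were of fibroblast, leukocyte, endothelial, epithelial, smooth muscle and pericyte, and mesothelial genes. The members and lists were chosen with earlier results of these data known.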

Additional observations from a re-analysis of the deposited data

Results flagged for a closer look

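The bleo change differed between the genotypes for 10 members by the test of the interaction, given here as the log2 fold change in Pear1-/- less that in WT. It was 2.67 for Wnt10a, 2.07 for Fzd5, 1.48 for Sfrp1, 0.93 for Fzd1, 0.90 for Sfrp2, 0.88 for Dkk3, 0.60 for Wnt9a and 0.33 for Wnt5a. For Dkk2 it was -1.42 and for Sfrp4 -1.65. The value of Fzd5 rests on vehicle libraries in which its mean level per kilobase was 1.21 times that of olfactory receptor genes in WT and 0.62 times in Pear1-/-, and that of Wnt10a on a WT vehicle group in which replicate 2 held 5 counts against 22 and 25.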

How the results depend on the processing

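Under the alternatives 1600 values were computed for 77 member results, which were the 72 called and the 5 not called of Axin2 and Lef1. Of these values 1477 kept their direction and side of the threshold, 117 lost the call, 2 gained it and 4 changed sign. Other results not called were left out, so gains among them are not counted. Without WT vehicle replicate 2, such gains included Rspo3, Fzd1 and Rspo2 for bleo in WT (edgeR's adjusted p = 9.71e-05, 0.0174 and 0.0425). Of the 72 results called, 51 kept the call under every alternative, and of the 5 not called, 3 stayed so with the same sign. The sign changed for Wnt2 in WT bleo against WT vehicle, at 0.39 with WT vehicle replicate 2 as the only WT vehicle library, and for the interaction of Lef1, at 0.060 without WT vehicle replicate 3, 0.049 without WT bleo replicate 3 and 0.22 with WT vehicle replicate 2 as the only WT vehicle library. With 1 WT vehicle library the spread comes from the other groups alone. That setting and the subtraction of the olfactory receptor background were chosen after seeing the data. The cause was not tested.

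Between the vehicle groups, the 2 members called, beside 4.5% of all genes, became 1 with DESeq2's Wald test (4.45% of all genes), 1 with DESeq2's size factors (4.48%), 3 with upper-quartile scaling (7.48%), 14 without a filter, where all 43 were tested (13.8%), and 0 with only the groups compared (0%), with WT vehicle replicate 2 as the only WT vehicle library (0.0055%) and with the background subtracted (1.97%). Leaving out 1 library gave 0 to 21 there (0% to 55.2% of all genes) and 7 to 19 for the interaction (26.1% to 46.4%), against 10, with the highest of both without WT vehicle replicate 2. It gave 19 to 28 for bleo in WT (63.6% to 76.4%) against 22, 21 to 26 for bleo in Pear1-/- (50.3% to 68%) against 23, 12 to 19 between the bleo groups (31.5% to 49.2%) against 15, and 135 to 193 calls over the wider list against 156. Most of these fits tested 34 or 35 members, since the filter keeps more genes when the smallest group has fewer libraries. Upper-quartile scaling moved the median of all genes by -0.15 for bleo in WT.

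The replicate numbers gave no sign of pairing. Deviations of same-numbered libraries correlated at -0.35 to 0.30, with a median of -0.06. Those of differently numbered libraries correlated at -0.24 to 0.31, with a median of 0.03. With 3 libraries per group these values cannot decide whether samples were paired. With the replicate number as a block, 22, 23, 14, 2 and 10 members were called, against 22, 23, 15, 2 and 10 without it, and 155 against 156 over the wider list. Low counts limit Sfrp5, Fzd5, Wnt7b and Rspo2, and 5 values could not be fitted.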
